A study of Aloe vera with 7 samples.

Results

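Cytochrome P450 enzymes are haem proteins that insert 1 oxygen atom into a small molecule, drawing electrons through a reductase partner. Plants carry many of them, sorted into clans by descent: the large clan 71 holds enzymes of defence compounds, phenolics and other specialised products, while smaller clans serve hormones, sterols, carotenoids and the lipids of cuticle and suberin. CYP71B, within clan 71, is a subfamily that multiplied in the lineage of Arabidopsis, and most of its enzymes have no assigned reaction. The probe sets described here carry a single gene whose symbol is CYP followed by 2 or 3 digits, a capital letter and a number. CYP71B30P, whose symbol goes on with a P, was counted as matching. They were 22 probe sets for 22 genes, out of 10991 genes on single-gene probe sets and 18810 probe sets tested in all.

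The study hybridised RNA of Aloe vera to ATH1 arrays, which were designed for Arabidopsis thaliana, using 3 arrays of root RNA, 3 arrays of leaf RNA and 1 array of genomic DNA. The labels describe a single mature plant from a garden centre, kept indoors at room temperature, with no treatment, and give neither its age nor the source of each replicate. The p-values therefore cover the spread among these arrays alone, which may be no more than technical. A value is the binding of Aloe RNA to probes made for Arabidopsis, and the names used are those of the Arabidopsis genes. Whether Aloe vera has a counterpart of each gene was not tested.

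Values are on a log2 scale relative to the median of the same probe set over the 6 RNA arrays, so 0 is the middle of that probe set and no signal level is given. The column of the DNA array held 0 values. As a check of the labels, 16 of 19 listed chloroplast-encoded photosynthesis genes were measured, and all 16 had a lower mean in root. Their average per array was -1.10 to -0.63 log2 in root and 0.45 to 1.46 log2 in leaf, and 5 of the 16 passed the adjusted test. The lowest of these leaf averages was that of leaf replicate 2, where the array's 25S ribosomal RNA control had a value of -4.72 log2, with the other 5 arrays at -0.90 to 1.08 log2. Of 20 listed nuclear photosynthesis genes 4 were measured. All 4 had a lower mean in root, and 0 passed the adjusted test. Their lowest leaf average was that of leaf replicate 1, at 0.19 log2, with leaf replicate 2 at 0.42 log2. Of 15 root marker symbols 2 were matched, the root hair expansin genes EXPA7 and EXPA18, and neither passed, so the root label has no marker here that passed.

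By clan, 21 of the 22 probe sets belonged to clan 71 and 1, CYP51G2, to clan 51. Under names of this form, 7 of the 9 plant clans considered had 0 members. As 7360 of the 18810 probe sets carried no gene name, absence of a clan from the arrays cannot be read from this. Within clan 71, 18 probe sets were of subfamily CYP71B, and the others were CYP78A9, CYP79A2 and CYP84A4. The P450 families of brassinosteroids, gibberellins, abscisic acid, cytokinins, jasmonates, strigolactones, carotenoids and fatty acid hydroxylation were not represented under names of this form. Each gene had 1 probe set. A further 2 probe sets carried several genes, at least 1 of them a P450, and were left out.

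The comparison of root with leaf asked whether RNA of the 2 tissues gave different values on these P450 probe sets. No single P450 difference passed the test over all probe sets: 0 of the 22 had an adjusted p under 0.05 in limma, 0 higher in root and 0 higher in leaf, where 0.340% of all probe sets passed (0.0638% higher in root and 0.276% higher in leaf). The lowest adjusted p was 0.336, for CYP71B30P, and 0.447 without that probe set. An unadjusted p under 0.05 was reached by 4 of the 22 (background 9.56%): CYP71B23, CYP71B6 and CYP71B16 on the root side (3, background 4.68%) and CYP71B30P on the leaf side (1, background 4.88%, and 0 without CYP71B30P). In bulk RNA, fewer cells of a type and less RNA per cell cannot be told apart.

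In 5 of the 22 probe sets the values of the tissues did not overlap, 22.7% of the family beside 15.1% of all probe sets. All root values lay above all leaf values in 3 (background 8.27%), and below them in 2 (background 6.87%). All 5 were of subfamily CYP71B, which makes up 18 of the 22 (5 of 18, 27.8%, and 0 of the 4 others). At 22 members these shares are a description, with no test.

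**Figure D1:**
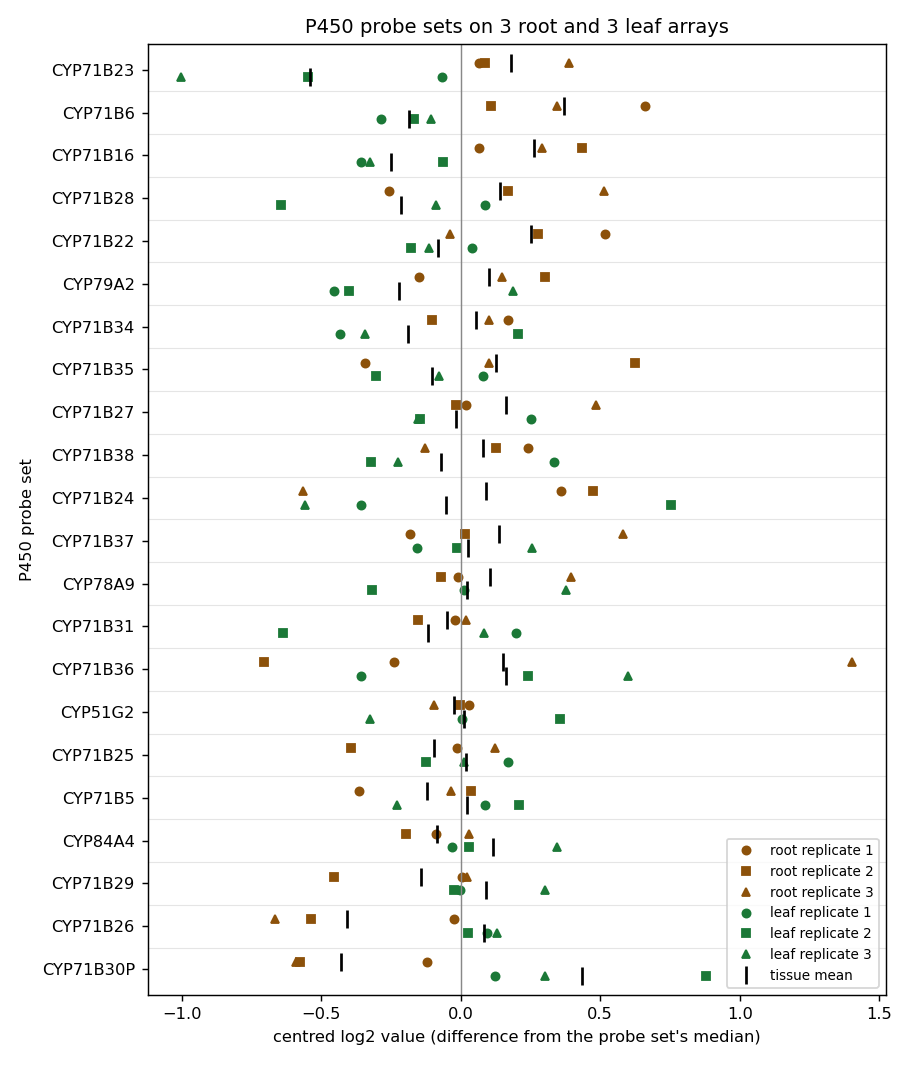
Centred log2 values (horizontal axis) of the 22 P450 probe sets (rows, ordered by root minus leaf), with brown symbols for root arrays, green symbols for leaf arrays, a symbol shape per replicate number and a black bar for each tissue mean. Brown and green are separate in CYP71B23, CYP71B6 and CYP71B16 at the top and in CYP71B26 and CYP71B30P at the bottom, and intermix in the other 17 rows.

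CYP71B23 had the largest difference toward root. Its probe set (257623_at) stood at 0.067, 0.086 and 0.39 log2 in root replicates 1 to 3, against -0.067, -0.55 and -1.003 log2 in leaf replicates 1 to 3. The tissues were separated by a gap of 0.13 log2, and the leaf arrays were spread far more widely than the root arrays (SD 0.18 log2 in root and 0.47 log2 in leaf). Root minus leaf was 0.72 ± 0.27 log2 (SE, 3 arrays per tissue), a 1.65-fold difference, with an unadjusted p of 0.0309 and an adjusted p of 0.447 in limma.

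CYP71B6, which in Arabidopsis acts on indole-3-acetonitrile in the metabolism of indole defence compounds, had root values of 0.66, 0.11 and 0.35 log2 against leaf values of -0.28, -0.17 and -0.11 log2 (probe set 266000_at). Here it was the root arrays that spread, with replicate 1 highest, while the leaf arrays lay within 0.18 log2 of each other. The difference was 0.56 ± 0.22 log2, or 1.47-fold (unadjusted p = 0.0334 and adjusted p = 0.458 in limma).

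CYP71B16, whose reaction is not given here, stood at 0.064, 0.44 and 0.29 log2 in root, against -0.36, -0.064 and -0.32 log2 in leaf (probe set 257630_at). Its spread was small in both tissues, with an SD of 0.19 log2 in root and 0.16 log2 in leaf. Root minus leaf was 0.51 ± 0.21 log2, or 1.43-fold (unadjusted p = 0.0384 and adjusted p = 0.480 in limma).

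On the leaf side, CYP71B30P had the largest difference of the family in either direction. The final P of its symbol marks a pseudogene in P450 naming. Its probe set (251978_at) stood at -0.12, -0.58 and -0.59 log2 in root, against 0.12, 0.88 and 0.30 log2 in leaf, with leaf replicate 2 the highest array. Root minus leaf was -0.86 ± 0.27 log2, 1.82-fold, with an unadjusted p of 0.0122 and an adjusted p of 0.336 in limma. Within the replicate numbers the differences were -0.24, -1.46 and -0.89 log2, so the pair numbered 1 differed far less than the others.

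CYP71B26 was the other probe set with all root values below all leaf values. It had -0.024, -0.54 and -0.67 log2 in root, against 0.093, 0.024 and 0.13 log2 in leaf (probe set 257628_at). The gap between the tissues was only 0.049 log2, between root replicate 1 and leaf replicate 2. The difference was -0.49 ± 0.23 log2 and missed the unadjusted threshold as well, with an unadjusted p of 0.0645 and an adjusted p of 0.573 in limma.

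**Figure D2:**
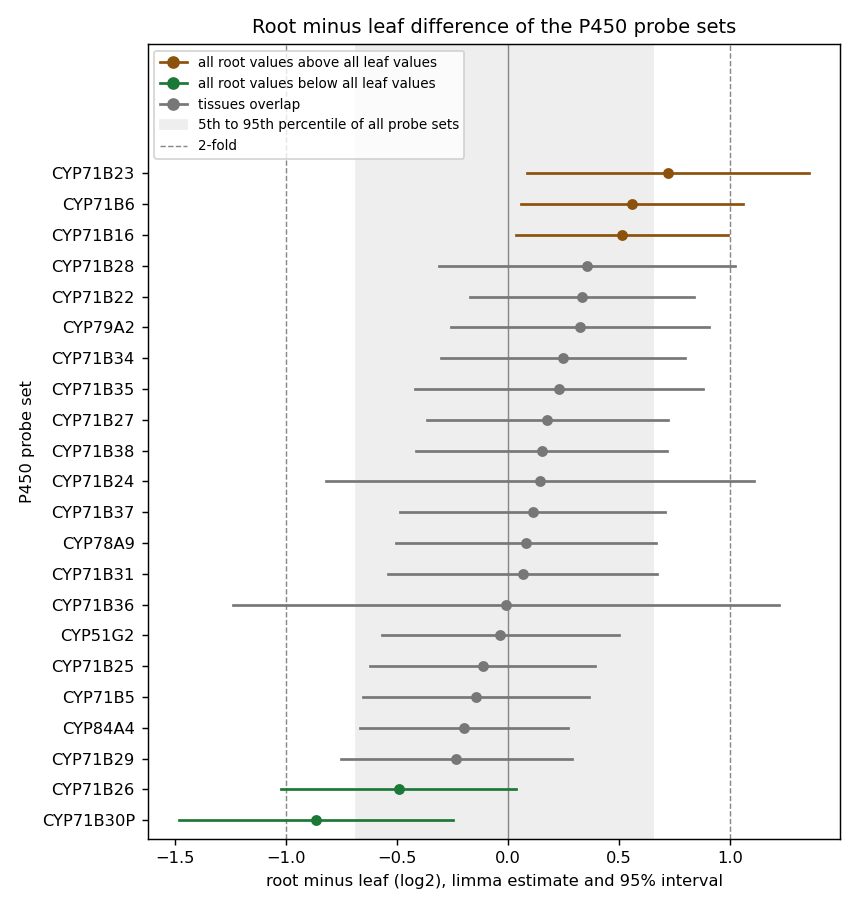
Root minus leaf difference in log2 (horizontal axis) of each P450 probe set (rows), with limma's 95% interval. Brown marks the 3 probe sets with all root values above all leaf values, green the 2 with all root values below them, and grey the 17 that overlap. Dashed lines mark 2-fold and the grey band spans -0.69 to 0.65 log2, the 5th to 95th percentile of all probe sets, which CYP71B23 and CYP71B30P lie outside.

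The 17 probe sets whose tissues overlapped ranged in root minus leaf from -0.23 to 0.36 log2, with adjusted p-values of 0.720 to 0.997 in limma. Of these, 11 had a higher mean in root and 6 in leaf. CYP71B22, with the smallest p of these, had 0.52, 0.28 and -0.040 log2 in root against 0.040, -0.18 and -0.11 log2 in leaf. Only root replicate 3 and leaf replicate 1 crossed. Its difference was 0.33 ± 0.22 log2 (adjusted p = 0.720), and root was higher in all 3 pairs of the same replicate number.

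The 4 probe sets outside CYP71B all overlapped. CYP79A2, which starts the synthesis of benzylglucosinolate from phenylalanine in Arabidopsis, had -0.15, 0.30 and 0.15 log2 in root against -0.46, -0.40 and 0.19 log2 in leaf. Its difference was 0.32 ± 0.25 log2 (adjusted p = 0.771), and leaf replicate 3 lay apart from the other leaf arrays, level with root.

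CYP84A4, an enzyme of arabidopyrone synthesis in the phenylpropanoid network of Arabidopsis, had -0.088, -0.19 and 0.030 log2 in root against -0.030, 0.030 and 0.34 log2 in leaf. Leaf was higher in all 3 same-numbered pairs, by 0.31 log2 at most, and the difference of -0.20 ± 0.20 log2 did not pass (adjusted p = 0.838). CYP78A9, a relative of KLUH that promotes seed and fruit growth in Arabidopsis, stood at -0.011, -0.072 and 0.40 log2 in root and at 0.011, -0.32 and 0.38 log2 in leaf. Replicate 3 was the highest array in both tissues, and the difference was 0.081 ± 0.25 log2 (adjusted p = 0.960).

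CYP51G2 belongs to the sterol 14-demethylase clan, which is shared across kingdoms. Its values were 0.029, -0.0029 and -0.096 log2 in root against 0.0029, 0.36 and -0.33 log2 in leaf. Root arrays stayed within 0.12 log2 of each other and leaf arrays spread over 0.68 log2, so the difference of -0.034 ± 0.23 log2 (adjusted p = 0.985) sits far inside the leaf spread.

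Within CYP71B, the probe sets with the widest spread between replicates were CYP71B36, CYP71B24 and CYP71B28. CYP71B36 stood at -0.24, -0.71 and 1.40 log2 in root against -0.36, 0.24 and 0.60 log2 in leaf. Root replicates 2 and 3 were thus the lowest and the highest of all 6 arrays, 2.11 log2 apart, while the difference between tissue means was -0.0094 ± 0.53 log2. Without root replicate 3 the difference was -0.64 log2, and without root replicate 2 it was 0.42 log2.

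CYP71B24 had 0.36, 0.47 and -0.56 log2 in root against -0.36, 0.76 and -0.56 log2 in leaf, and a difference of 0.14 ± 0.42 log2. Replicate 3 was low in both tissues. CYP71B28 had -0.26, 0.17 and 0.51 log2 in root against 0.088, -0.64 and -0.088 log2 in leaf, with leaf replicate 2 the lowest array and a difference of 0.36 ± 0.29 log2 (adjusted p = 0.779).

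Among the remaining CYP71B probe sets the differences were smaller than 0.25 log2. CYP71B31, linked to the oxidation of linalool in Arabidopsis flowers, had -0.020, -0.15 and 0.020 log2 in root against 0.20, -0.64 and 0.084 log2 in leaf, a difference of 0.066 ± 0.26 log2. The difference was 0.25 ± 0.24 log2 for CYP71B34, 0.23 ± 0.28 log2 for CYP71B35 and 0.18 ± 0.23 log2 for CYP71B27. It was 0.15 ± 0.24 log2 for CYP71B38 and 0.11 ± 0.26 log2 for CYP71B37. Toward leaf, it was -0.23 ± 0.22 log2 for CYP71B29, -0.14 ± 0.22 log2 for CYP71B5 and -0.11 ± 0.22 log2 for CYP71B25. In all of these the standard error was close to the difference or larger.

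Over the whole family, the median root minus leaf difference was 0.13 log2, beside 0.034 log2 over all probe sets. The means were higher in root for 14 of the 22 (63.6%), where 54.5% of all probe sets had a higher mean in root. The median was 0.14 log2 over the 21 probe sets of clan 71, 0.15 log2 over the 18 of CYP71B and 0.023 log2 over the 4 outside CYP71B, with no test. Without root replicate 3 the family median was 0.023 log2, and over the other left-out arrays it lay between 0.10 and 0.17 log2. Root replicate 3 was the highest of the 6 arrays for 6 of the 22 probe sets (27.3%, beside 17.8% of all probe sets). Leaf replicate 2 was the highest for 5 of the 22 (22.7%, beside 13.1% of all probe sets).

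The median absolute difference was 0.21 log2 for the P450 probe sets and 0.23 log2 for all probe sets, and 0 of the 22 exceeded 1 log2 where 3.50% of all probe sets did. The residual SD between replicates had a median of 0.27 log2 in the family and 0.32 log2 over all. The direction was the same in all 3 same-numbered pairs in 7 of the 22 (31.8%, background 34.3%): root higher in 4 (background 19.5%), root lower in 3 (background 14.8%).

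**Figure D3:**
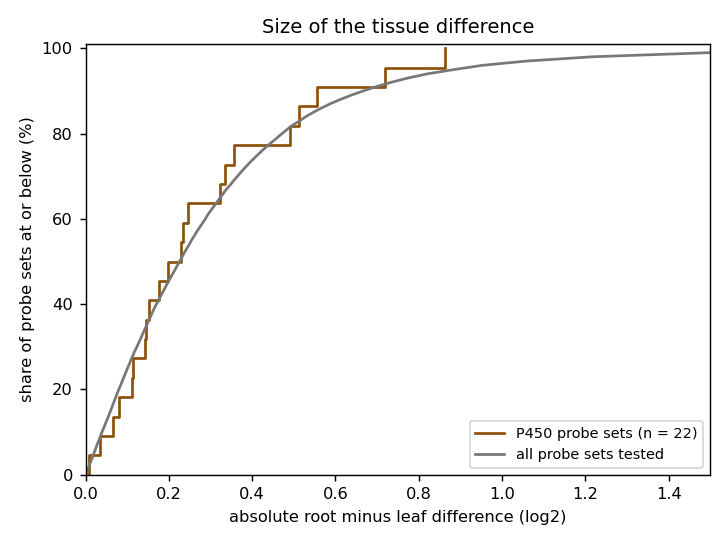
Cumulative share of probe sets (vertical axis, percent) with an absolute root minus leaf difference at or below the value on the horizontal axis (log2), for the 22 P450 probe sets (brown steps) and all probe sets tested (grey line). The brown steps run close to the grey line and end at 0.86 log2, the value of CYP71B30P, while the grey line goes on past it.

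The number of arrays limited what could be seen. The standard error of a P450 difference was 0.20 to 0.53 log2, with a median of 0.24 log2. The 95% interval lay within 2-fold either way for 15 of the 22 probe sets (background 63.4%): all 4 outside CYP71B and 11 of the 18 in it (61.1%). It reached beyond 2-fold for the other 7, all in CYP71B: CYP71B30P and CYP71B26 toward leaf, CYP71B23, CYP71B6, CYP71B28 and CYP71B24 toward root, and CYP71B36 in both directions. For CYP71B30P the interval ran from -1.48 to -0.25 log2, and for CYP71B23 it ran from 0.085 to 1.35 log2.

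The rounding of the deposited values still held a rough record of how bright a probe set had been, since the spacing of single-precision numbers doubles at 4 and again at 8. If the values had been stored that way, the rounding placed 1 P450 probe set, CYP51G2, at 8 or more on the RMA scale. It placed a further 15 at 4 or more, among them all 5 whose tissues did not overlap. A dimmer value can also fall on the coarser spacing, so a probe set with 1 array below the limit may sit in too high a class. The other 6 were under 4 on at least 1 array: CYP79A2, CYP71B5, CYP71B31, CYP71B36, CYP71B37 and CYP71B38. Over all probe sets 8.18% fell in the first class, 54.8% in the second and 37.0% in the third. These classes entered only the rough level filter given at the end, and detection above background cannot be read from them.

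Of the 5 separated probe sets, CYP71B30P was the 1 that kept an unadjusted p under 0.05 whichever array was left out, with p of 0.0104 to 0.0425 in limma and differences of -1.02 to -0.64 log2. CYP71B23 and CYP71B16 kept it in 2 of the 6 such fits, and CYP71B6 in 1. The difference of CYP71B23 was 0.49 log2 when leaf replicate 3 was left out and 0.96 log2 when leaf replicate 1 was. CYP71B26 reached an unadjusted p of 0.0184 without root replicate 1, where its difference was -0.68 log2. None of the 5 had an adjusted p under 0.05 in limma in any of these fits. None changed direction, but their lack of overlap fixed this in advance, since leaving out 1 array cannot reverse it.

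The count of 3 probe sets on the root side with an unadjusted p under 0.05 was 0 without leaf replicate 3 or root replicate 3. It was 1 without leaf replicate 1, leaf replicate 2 or root replicate 1, and 2 without root replicate 2. The count of 1 higher in leaf was 2 without root replicate 1 and 1 in the other 5 fits. Over all probe sets, the shares in these 6 fits were 3.76 to 4.90% on the root side and 3.91 to 4.76% on the leaf side.

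**Figure D4:**
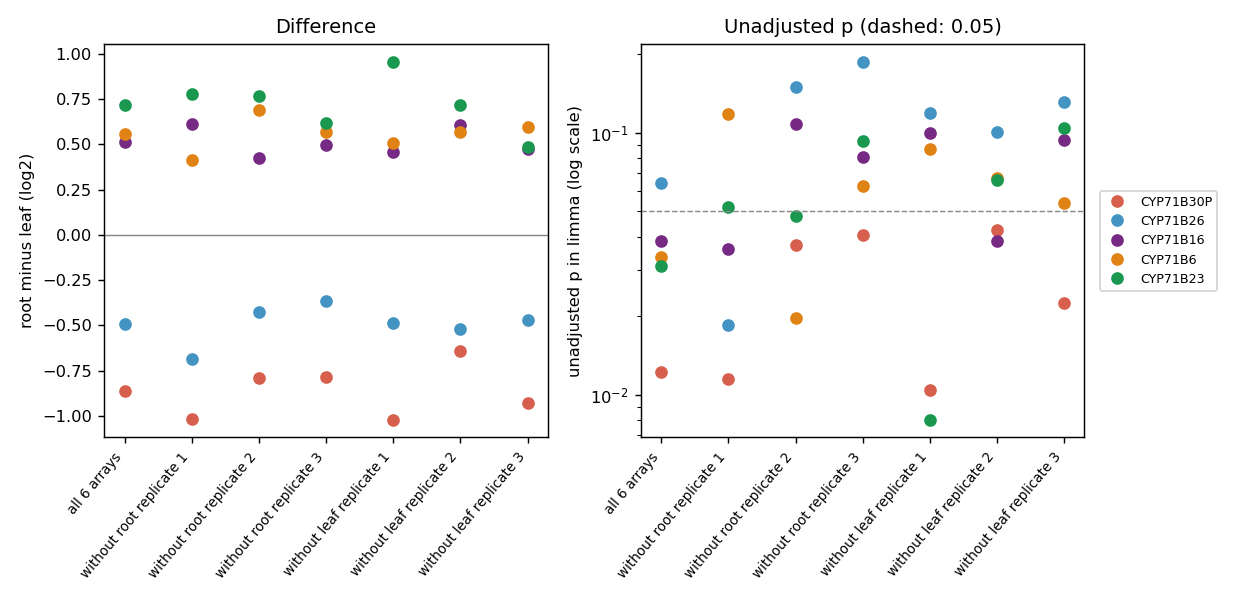
Root minus leaf difference (left panel, log2) and unadjusted p in limma (right panel, log scale, dashed line at 0.05) of the 5 P450 probe sets whose tissues did not overlap, with all 6 arrays and with each array left out in turn. Differences keep their side of 0 in every case, which the lack of overlap fixes in advance. In the right panel CYP71B30P is the probe set below the line in all 7 positions.

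P450 genes whose symbols have another form lay outside the rule. Of 36 such symbols listed, 0 were measured under that name. CYP718, named without a subfamily letter and of clan 85, had 0.20, 0.12 and 0.29 log2 in root against -0.12, -0.45 and -0.51 log2 in leaf. It was singled out after its values were seen, and its difference of 0.56 ± 0.20 log2 had an unadjusted p of 0.0240 and an adjusted p of 0.420 in limma.

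Partner genes of P450 pathways were measured sparsely. In 7 lists with 160 symbols, 10 genes in 5 lists were matched. In limma 0 of them passed in either direction, adjusted (background 0.340%) or at an unadjusted p under 0.05 (background 9.56%). Their differences ran from -0.18 to 0.55 log2, 8 with a higher mean in root (background 54.5%) and 2 in leaf. The electron donors of P450s, with 16 symbols, and the list for brassinosteroids and sterols had 0 matches.

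Of the glucosinolate partners, BCAT4, which starts methionine chain elongation, differed by 0.55 ± 0.31 log2 and the glucosyltransferase gene UGT74B1 by 0.14 ± 0.25 log2 (adjusted p = 0.662 and 0.926). The gibberellin receptor genes GID1A and GID1B both differed by 0.41 log2, with SE of 0.28 and 0.24 log2. OPCL1, of jasmonate synthesis, stood at 0.33 ± 0.22 log2. The wax ester synthase gene WSD1, 1 of the 10, had no overlap between tissues (background 15.1%) at a small difference, 0.21 ± 0.18 log2. Of the general list of phenylpropanoid and lignin partners, DFR of flavonoid synthesis stood at -0.18 ± 0.41 log2 and HCT of lignin synthesis at -0.12 ± 0.34 log2. The third measured, the methyltransferase gene CCOAMT, stood at 0.051 ± 0.22 log2.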

How the data were processed

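RMA values, taken as log2 (the base is not stated), were deposited by the authors, per the submitters' processing notes; the version is not given in the sources used here. As seen from the values, each probe set had been centred on its median over the 6 RNA arrays (within 1e-06). Labelling used 250 ng of total RNA an array, per the labels' protocols. The DNA column was left out (1 column with 0 values), as were 64 control probe sets. The platform's probe table gave 11100 probe sets 1 gene, 350 several and 7360 none.

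Root minus leaf was fitted over all 18810 probe sets with limma 3.58.1 (lmFit, eBayes, R 4.3.3) without covariates and adjusted by Benjamini-Hochberg, called under 0.05. There were 4 residual and 3.8 prior degrees of freedom. The fit was tested on simulated data with independent noise on each array, so deviations shared by same-numbered arrays (below) were not covered. Summaries used Python 3.11.15 and SciPy 1.17.1. Clans followed the family number.

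Members, lists and rules were chosen with earlier results of these data known. The naming rule took called probe sets, up to 10 per direction without overlap, 2 per clan with the smallest p, and the 3 with the largest residual SD or smallest difference. The other members are given because all are accounted for. In other lists it took called genes, or else the 2 with the smallest p. A listed symbol was dropped where the probe table ties it to another gene (2).

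Same-numbered root and leaf arrays deviated together from their tissue means (Pearson's r 0.12, 0.37 and 0.25 across probe sets, against -0.29 to 0.064 for other pairings). Deviations cancel out within a tissue, so these correlations depend on each other. The numbers were taken as pairs in the counts by pair and in the replicate block, while the main fit ignored them. The labels do not give the source of each replicate, so the pairing is an assumption. No 2 arrays were duplicates: the closest differed by a median of 0.301 log2.

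Alternatives were a replicate block, quantile normalization, array centring, array weights, a variance trend with robust fitting, leaving out shared-sequence probe sets, 1 value per gene, a minimum change of 1.2-fold and leaving out each array.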

Additional observations from a re-analysis of the deposited data

How the results depend on the processing

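The count of P450 probe sets called at an adjusted p under 0.05 was 0 in each direction under every alternative, and the lowest adjusted p of any member was 0.148 (the minimum-change test apart). With all arrays, 3 probe sets on the root side had an unadjusted p under 0.05 in limma. After quantile normalization 2 did, and with array weights 2 did (4.25% and 5.34% of all probe sets). The root-side count was 1 with a variance trend and robust fitting (4.58% of all probe sets), whose trend rests on centred values (the cause was not tested). With 1 array left out it was 0 to 2. The count higher in leaf, 1 with all arrays, was 1 to 2 with 1 array left out, on fewer samples. The family median of 0.13 log2 ranged from 0.023 to 0.17 log2 with 1 array left out, and was 0.11 log2 after quantile normalization. The replicate block changed no call, left the counts at 3 and 1, and gave CYP71B30P an unadjusted p of 0.0181 (limma, adjusted p = 0.294 and 0.148 to 0.540 over all alternatives). Of the 22 members 14 kept their direction in the 13 planned fits other than the minimum-change test, and the other 8 had differences of at most 0.23 log2. Some of these fits could not change a direction. The replicate block, the variance trend, 1 value per gene and leaving out shared-sequence probe sets left every member's difference as it was. With 1 array left out, the direction was also fixed for the probe sets whose tissues did not overlap. The table gives no levels for a filter on dim probe sets. A rough one, chosen after seeing the data, kept the probe sets that the rounding places at 4 or more: of 16 members 0 were called, 3 and 1 had an unadjusted p under 0.05 on the root and leaf side (5.45% and 5.42% of all probe sets kept), and the median was 0.16 log2.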
